A study of Homo sapiens with 4 samples.

Results

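Chromatin accessibility was examined at 8 genes that encode cell adhesion molecules and costimulatory or checkpoint molecules and that are known as targets of the transcription factor NF-kB: ICAM1, VCAM1, CD44, SDC4, CD274, CD80, CD83 and TNFRSF9. The genes were taken by name from GENCODE release 44 and all 8 were found. The accessible sites of a gene were the merged ATAC-seq peaks that lay within 100 kb of any of its annotated transcription start sites. By this rule 287 of 307691 sites belonged to the 8 genes, and no site belonged to more than 1 of them. SDC4 had 75 sites, ICAM1 59, CD44 40, TNFRSF9 36, CD83 35, CD80 18, CD274 17 and VCAM1 7.

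TWEAK is a cytokine of the TNF family, and its receptor Fn14 activates the non-canonical NF-kB pathway, in which p100 is processed to p52, as well as the canonical pathway and MAP kinases that act on AP-1. NF-kB dimers bind kB motifs in promoters and enhancers of genes for inflammation, adhesion and immune regulation. ICAM1 and VCAM1 are the immunoglobulin-family ligands of leukocyte integrins, CD44 is the receptor for hyaluronan, and SDC4 is a heparan sulfate proteoglycan of focal adhesions. CD80 is a ligand of CD28 and CTLA-4, CD274 encodes the checkpoint ligand PD-L1, CD83 is a surface marker of mature dendritic cells, and TNFRSF9 is a costimulatory receptor of the TNF receptor family.

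The cells were SKBR3, an established HER2-positive breast cancer line. ATAC-seq, in which Tn5 transposase inserts adaptors into open DNA, was performed on 2 libraries labelled untreated and 2 libraries from cells treated with TWEAK at 10 ng/ml for 48 h. The growth text shared by all samples gives 8 h of starvation before treatment and fresh TWEAK after 24 h. Replicates of cell lines were described in the methods as biological, and experiments on cell lines as having been run independently on different days, but neither the labels nor the methods tie a library to a day or batch. Because a bulk library sums over cells, fewer cells with an open site and less opening per cell cannot be told apart.

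A list of peaks of equal width was available for each library. The untreated lists held 208407 and 228734 peaks and the TWEAK lists 218423 and 195388, replicate 1 before replicate 2 as in every pair of values given here. Every peak carries a -log10 p, from which the pileup of reads and a background common to the whole list were recovered. The background was 3.59, 2.24, 2.63 and 1.85 in the same order, highest in untreated replicate 1. The weakest listed peak stood at 2.79, 3.13, 3.04 and 3.79 times the background, so the TWEAK replicate 2 list was the most restrictive in fold. The median peak stood at 7.53, 8.05, 8.74 and 10.8 times the background, higher in both TWEAK lists than in the untreated ones. The strength of a peak is given as its rank percentile within its list, where 100 is the strongest peak, or as the fold of its pileup over the background. Since each list has a single background, the copy number of a locus enters its percentile. Differences with TWEAK were therefore taken between libraries at the same site. Comparisons of percentiles or shares between loci, which are also given, carry this limit. The labelled cell type was checked at start sites of marker genes. All 9 markers of HER2-positive luminal epithelium had a peak in all 4 libraries with a median percentile of 98.2, CD3E, MS4A1 and TEK had none, and 3 of 6 leukocyte, 2 of 4 endothelial and 3 of 4 fibroblast markers had a peak in all 4.

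Some of the sites described carry consensus matches for NF-kB or AP-1, and the sequences of 5 of them are given here in hg38, on the plus strand, with the matches in capitals. Sites are named by the distance of their centre from the start of the gene record, in the direction of transcription. The ICAM1 window lies in the first part of the gene, in intron at chr19:10271701-10271901. The VCAM1 window is intergenic at chr1:100622163-100622363, the CD44 window lies in an intron of SLC1A2 at chr11:35282590-35282790, the CD274 window in an intron of CD274 at chr9:5455305-5455505, and the SDC4 window is intergenic at chr20:45359826-45360026. The VCAM1 and CD44 windows, and the SDC4 window among sites present in all libraries, were chosen for display after their values were seen. The site with the largest difference, 165.5 kb downstream of the CD44 start, and the strong gained sites at CD44 152.2 kb downstream and CD83 37.6 kb upstream hold neither match.
ICAM1, 0.7 kb downstream: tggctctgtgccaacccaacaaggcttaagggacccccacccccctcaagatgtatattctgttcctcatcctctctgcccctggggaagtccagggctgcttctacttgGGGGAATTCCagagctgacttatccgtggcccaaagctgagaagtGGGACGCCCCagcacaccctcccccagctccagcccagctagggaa
VCAM1, 97.4 kb upstream: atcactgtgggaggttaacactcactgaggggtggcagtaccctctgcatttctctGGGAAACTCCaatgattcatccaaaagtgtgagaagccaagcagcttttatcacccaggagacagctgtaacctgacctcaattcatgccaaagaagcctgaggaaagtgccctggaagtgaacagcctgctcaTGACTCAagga
CD44, 143.8 kb downstream: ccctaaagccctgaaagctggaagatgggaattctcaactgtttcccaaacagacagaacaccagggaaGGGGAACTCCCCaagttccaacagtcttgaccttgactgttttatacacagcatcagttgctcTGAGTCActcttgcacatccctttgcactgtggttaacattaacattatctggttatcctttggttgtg
CD274, 4.9 kb downstream: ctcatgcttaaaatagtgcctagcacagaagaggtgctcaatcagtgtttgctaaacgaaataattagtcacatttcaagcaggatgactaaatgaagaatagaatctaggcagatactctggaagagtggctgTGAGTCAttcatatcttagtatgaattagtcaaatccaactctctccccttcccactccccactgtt
SDC4, 11.5 kb upstream: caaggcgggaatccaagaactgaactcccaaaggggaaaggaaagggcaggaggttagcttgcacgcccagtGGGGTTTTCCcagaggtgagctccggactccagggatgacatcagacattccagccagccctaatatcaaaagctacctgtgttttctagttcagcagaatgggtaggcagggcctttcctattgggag

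To examine whether TWEAK altered the accessible landscape of the 8 genes, sites were sorted by the libraries that had a peak there. Sites listed in both TWEAK libraries and neither untreated library were called gained, and the reverse lost. The 8 genes were chosen with earlier results of these data known, so their shares are descriptive. The 8 genes held 23 gained sites, which is 8.01% of their 287 sites, whereas 3.6% of all sites were gained. They held 5 lost sites, or 1.74%, whereas 3.79% of all sites were lost. ICAM1 with 7, CD44 with 5 and CD274 with 5 together carried most of the gained sites, CD83 and TNFRSF9 had 2 each, VCAM1 and SDC4 had 1 each, and CD80 had none. Without ICAM1, the remaining genes held 16 gained sites of 228, or 7.02%. Of the lost sites, 3 lay at SDC4, 1 at CD44 and 1 at TNFRSF9. With untreated replicate 1 or 2 left out, the lost sites numbered 8 or 9 at SDC4, 5 or 3 at CD44, 3 or 5 at ICAM1, 4 in both cases at CD83, 1 in both at CD80 and TNFRSF9, and 0 or 1 at VCAM1. With TWEAK replicate 2 left out, a peak in TWEAK replicate 1 suffices and the gained sites numbered 11 at ICAM1, 6 at CD44, 8 each at CD274, CD83 and SDC4, 7 at TNFRSF9, 3 at CD80 and 1 at VCAM1. When any 1 library was left out, the 8 genes held 33 to 52 gained and 12 to 24 lost sites, and the shares over all sites rose as well, to between 6.54% and 11.6% gained and between 6.56% and 15.9% lost.

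Gained sites were of middling strength. Their percentile ranged from 6.62 to 68.8 with a median of 40.6 in TWEAK replicate 1 and from 2.52 to 70.7 with a median of 37.7 in TWEAK replicate 2. All gained sites of the dataset had medians of 35.4 and 31.2. The fold of the 23 sites ran from 3.42 to 16 and from 3.79 to 21.1 in the TWEAK lists. Of the 23 sites 3 lay above the 50th percentile in both TWEAK libraries (13%, against 16.4% of all gained sites), namely the ICAM1 site 5.6 kb upstream, the CD44 site 152.2 kb downstream and the CD83 site 37.6 kb upstream. For 6 of the 23 an untreated library had a peak within 500 bp, which left 17 gained and 2 lost sites without a peak of the lacking group that close. These were 6.12% and 0.719% of the sites left at the 8 genes, against 2.67% and 2.56% over all sites.

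**Figure D1:**
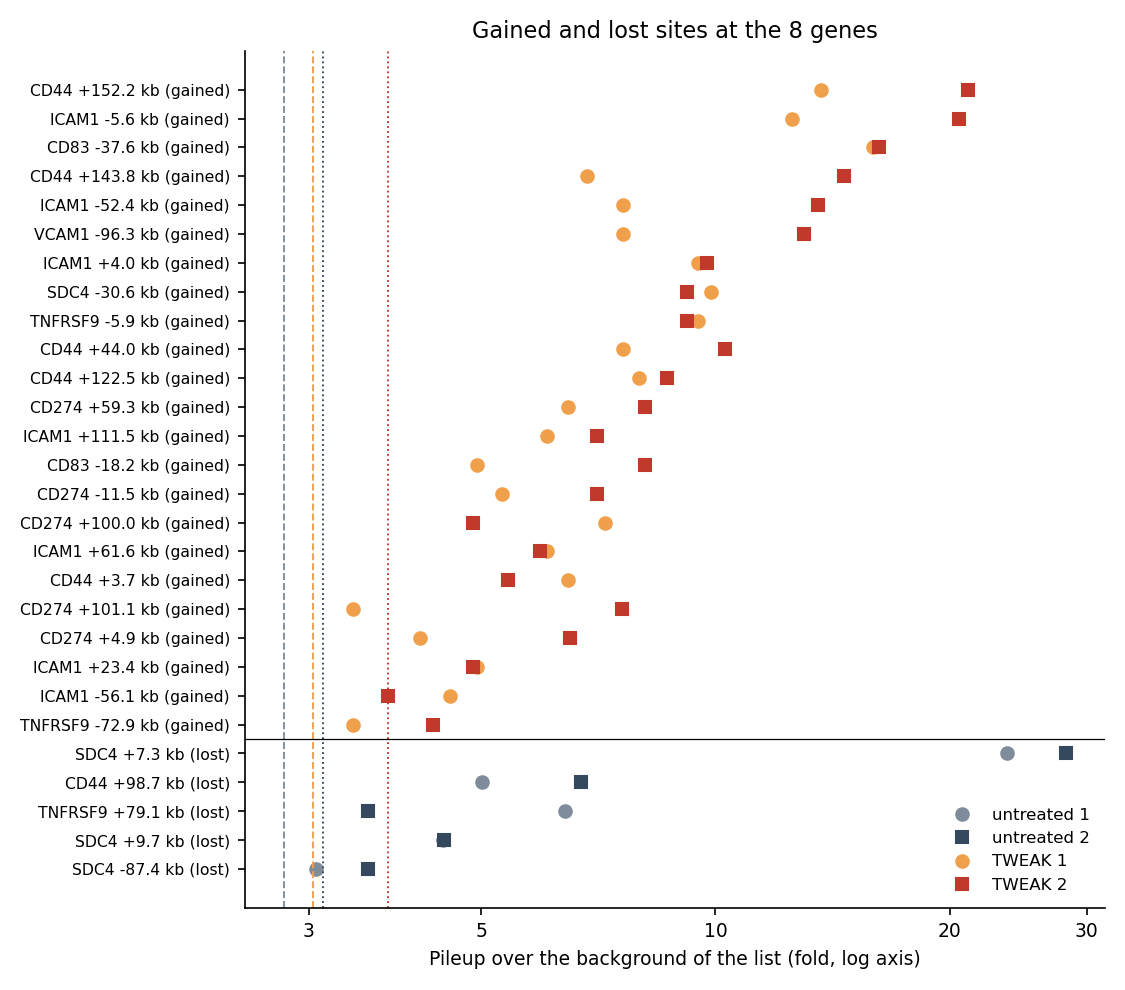
Fold of the pileup over the background of its list (log axis) for the 23 gained and 5 lost sites, with 1 point per library that has a peak there. The vertical lines mark the weakest peak of each list, 2.79, 3.04, 3.13 and 3.79 from left to right (untreated 1, TWEAK 1, untreated 2, TWEAK 2), and the CD44, ICAM1 and CD83 sites at the top reach 12.5 to 21.1.

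Sites that missed a single library leaned the same way. At the 8 genes, 25 sites were absent only from 1 untreated list, or 8.71%, against 5.59% of all sites. A further 14 were absent only from 1 TWEAK list, or 4.88%, against 7.16% of all sites. The mixed patterns with 1 untreated and 1 TWEAK library made up 17 sites, or 5.92%, and 7.89% of all sites. Sites found in all 4 libraries numbered 127, or 44.3%, close to the 42.8% of all sites, and the remaining 76 had a peak in 1 library.

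The number of peaks within 100 kb was then compared between libraries. Together the 8 genes had 186 and 186 peaks in the untreated libraries and 224 and 202 in the TWEAK libraries. The TWEAK mean of 213 ± 15.6 (SD, n = 2) was 27 peaks above the untreated mean of 186 ± 0 (SD, n = 2; exact permutation test, two-sided, p = 0.333). This is the smallest p that the exact permutation test allows with 2 against 2 libraries, so it could not pass 0.05 for any comparison of peak numbers. The groups did not overlap at 4 of the 8 genes, ICAM1, CD44, CD274 and TNFRSF9, each with more peaks in both TWEAK libraries, and 9.16% of 19962 protein-coding genes showed the same order. At the other genes the groups overlapped.

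**Figure D2:**
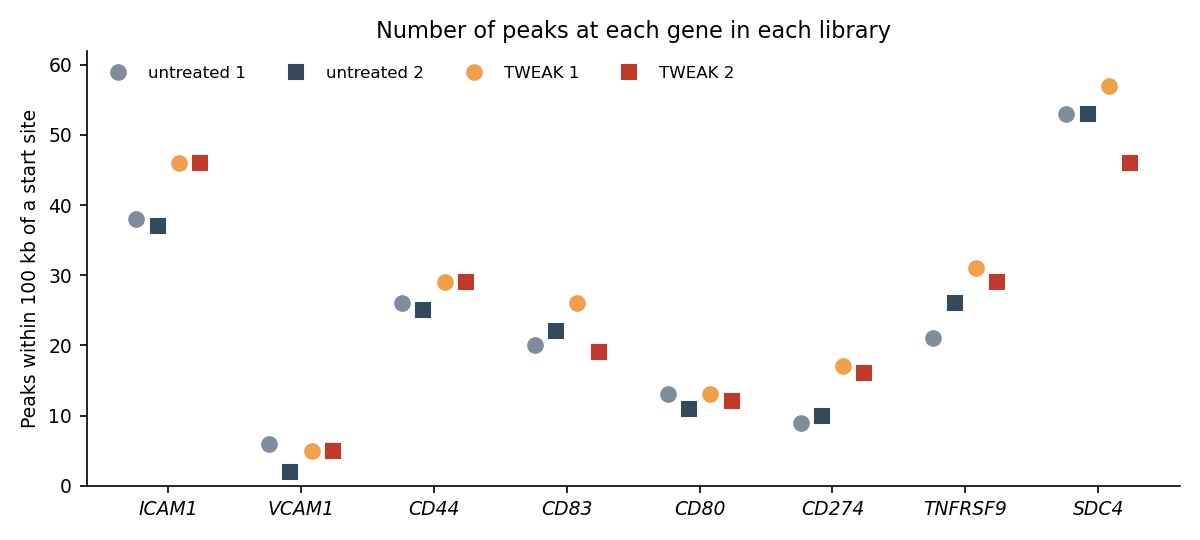
Number of peaks within 100 kb of a start site of each gene in each of the 4 libraries. CD274 goes from 9 and 10 peaks in the untreated to 17 and 16 in the TWEAK libraries and ICAM1 from 38 and 37 to 46 and 46, whereas the libraries of both groups mix at VCAM1, CD83, CD80 and SDC4.

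ICAM1 (ENSG00000090339.9, chr19:10271093-10286615, plus strand) had 38 and 37 peaks in the untreated libraries and 46 and 46 in the TWEAK libraries. It had 7 gained sites, and 0.746% of protein-coding genes had as many, although 73.8% of genes had fewer sites of any kind than ICAM1. No ICAM1 site was lost, although 3 and 5 were without untreated replicate 1 and 2. Within 50 kb of a start site 4 gained sites were left. The gained site with the highest percentiles, 62.1 and 70.0 in TWEAK replicates 1 and 2, is intergenic and lies 5.6 kb upstream of the gene. Its fold over background was 12.5 and 20.6, and the nearest peak of an untreated library was 3602 bp away. A gained site within an ICAM1 intron 4.0 kb downstream of the start had percentiles of 53.2 and 45.3, and another in a DNMT1 intron 52.4 kb upstream had 44.9 and 57.3. The other 4 lay in DNMT1, at ICAM5, at the RAVER1 promoter and near TYK2, and all 4 were below the 36th percentile. Those at ICAM5, RAVER1 and TYK2 had an untreated peak within 500 bp.

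The start of ICAM1 itself was open in every library. The site over the start, chr19:10270288-10271328, had percentiles of 64.7 and 68.5 in the untreated and 72.2 and 71.4 in the TWEAK libraries, and although the groups did not overlap the difference did not pass the test described below (limma, adjusted p = 0.569). A separate site 0.7 kb downstream, chr19:10271551-10272110 in an ICAM1 intron, holds 2 kB matches. It stood at percentile 6.15 in untreated replicate 1, was not listed in untreated replicate 2 and reached 72.2 and 67.6 in the TWEAK libraries, which corresponds to 3.07-fold, 18.2-fold and 19.0-fold over background. The site was thus weak or unlisted without TWEAK and above the middle of the list with it, but since 1 untreated list had it, it was not counted as gained.

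VCAM1 (ENSG00000162692.12, chr1:100719742-100739045, plus strand) had the fewest sites, with 6 and 2 peaks in the untreated and 5 and 5 in the TWEAK libraries. No list held a peak at the start of the gene record, and only peaks above the threshold of the caller are listed. The RefSeq promoter of VCAM1 (GRCh38.p14) nonetheless holds a kB match, the capitals in tccccttgaaGGGATTTCCCtccgcctctg, whose first base lies 62 bases before the start. The VCAM1 site nearest a start site, chr1:100735269-100736213, lies 16 kb downstream at an alternative start. It had percentiles of 40.2 and 54.8 in the untreated and 35.4 and 40.5 in the TWEAK libraries, without a call (limma, adjusted p = 0.600).

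The sites with the clearest contrast at VCAM1 lay far upstream. The only gained site, chr1:100623216-100623729, is 96.3 kb upstream and had percentiles of 44.9 and 56.0. Its neighbour 97.4 kb upstream, chr1:100621997-100622588, had percentile 6.15 in untreated replicate 1, no peak in untreated replicate 2 and 72.7 and 77.9 in the TWEAK libraries. This neighbour holds the kB and AP-1 matches shown above, and its fold went from 3.07 to 18.6 and 28.2. Both sites are close to the edge of the 100 kb rule and no gained VCAM1 site was left within 50 kb.

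CD44 (ENSG00000026508.21, chr11:35138882-35232402, plus strand) has 35 annotated start sites spread over its length, so its window reaches into the introns of SLC1A2, a glutamate transporter gene downstream of it. There were 26 and 25 peaks in the untreated and 29 and 29 in the TWEAK libraries. Of the 5 gained sites, 2 lay in CD44 introns 3.7 and 44 kb downstream of the gene start and 3 in SLC1A2 introns 122.5, 143.8 and 152.2 kb downstream. The last of these, chr11:35290793-35291305, was the strongest, with percentiles of 64.6 and 70.7 and folds of 13.7 and 21.1. The site at 143.8 kb had percentiles of 40.6 and 59.8 and carries 3 overlapping kB matches and an AP-1 match, the only gained site at the 8 genes with both. With the start of the gene record as the only start site, the SLC1A2 sites fall outside the window and 2 gained sites were left.

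The largest score difference among sites of the 8 genes present in all 4 libraries lay in the same stretch of SLC1A2. The site chr11:35303888-35304827, 165.5 kb downstream of the CD44 start, had percentiles of 51.7 and 48.9 in the untreated libraries and 92.1 and 92.1 in the TWEAK libraries. Its fold over background was 7.81 and 7.60 without TWEAK and 53.6 and 61.2 with TWEAK. With each library centred on its median, the ratio was 6.25. The groups were far apart relative to the gap between replicates (limma, score difference 1.41, SE 0.117, adjusted p = 6.1e-11). A further site at 157.1 kb was higher by a smaller margin, with 83.5 and 84.6 against 90.5 and 92.2 (limma, adjusted p = 0.00876), a call that was lost without untreated replicate 1 (limma, adjusted p = 0.0542) or TWEAK replicate 2 (limma, adjusted p = 0.106). Within and just behind CD44, by contrast, 2 sites were lower with TWEAK. The intronic site at 77.3 kb had 76.3 and 74.3 against 55.8 and 47.4 (limma, adjusted p = 0.00483), and the site at 97.9 kb had 58.4 and 61.8 against 44.9 and 17.9 (limma, adjusted p = 0.0376). The former was not called without untreated replicate 1 (limma, adjusted p = 0.0865). The latter was called, of the fits that left out 1 library, only without TWEAK replicate 1, and its adjusted p in limma was 0.151 and 0.236 without untreated replicates 1 and 2 and 0.375 without TWEAK replicate 2.

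At the start of CD44 the peak 0.8 kb downstream had percentiles of 47.4 and 53.0 in the untreated and 32.5 and 23 in the TWEAK libraries, a difference that did not pass the test (limma, adjusted p = 0.159). At an alternative start 40.2 kb downstream, chr11:35178850-35179387, the order was the opposite, with percentile 10.3 in untreated replicate 1, no peak in untreated replicate 2 and 57.0 and 67.6 in the TWEAK libraries. The 1 lost site of CD44, at 98.7 kb, had percentiles of 33.1 and 43.8 in the untreated lists. The nearest TWEAK peak was 185 bp away, and the sites on both sides were listed in all 4 libraries. CD44 thus held sites of both directions.

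SDC4 (ENSG00000124145.6, chr20:45325288-45348424, minus strand) had the most sites and the most lost ones. It had 53 and 53 peaks in the untreated and 57 and 46 in the TWEAK libraries, so the TWEAK replicates lay on either side of the untreated ones. The strongest lost site of the 8 genes, chr20:45340895-45341416 in an SDC4 intron 7.3 kb downstream, had percentiles of 81.1 and 82.8 and folds of 23.7 and 28.2 in the untreated lists. TWEAK libraries had a peak 82 bp away, the adjoining site chr20:45340299-45340820 was open in all 4 libraries, and the site on the other side, chr20:45341419-45342064, was listed in untreated replicate 2 and TWEAK replicate 1 at 65.0 and 69.4. The other lost sites had percentiles of 27.2 and 22.8 at 9.7 kb downstream and 6.15 and 9.60 at 87.4 kb upstream. The 1 gained SDC4 site, 30.6 kb upstream at the TP53TG5 promoter, had percentiles of 54.6 and 43.0 and an AP-1 match. With only peaks of at least 5 times the background, SDC4 had 3 gained sites and 1 lost site.

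Among the 32 SDC4 sites present in all libraries, 3 were higher with TWEAK. None was lower in limma, although 2 were lower at an unadjusted p under 0.05, and none was lower on the log2 fold scale. The intergenic site chr20:45359675-45360192, 11.5 kb upstream and shown above with its kB match, had percentiles of 63.3 and 59.3 in the untreated and 87.1 and 87.7 in the TWEAK libraries. Its fold was 11.2 and 10.3 against 38.0 and 46.0 (limma, score difference 0.86, SE 0.117, adjusted p = 2.57e-06). The intronic sites 4.0 and 18.7 kb downstream were already among the strongest peaks without TWEAK. The former, with 2 AP-1 matches, went from 81.5 and 83.0 to 90.7 and 89.6 (limma, adjusted p = 0.012), and the latter, with 2 kB matches, from 94.4 and 95.6 to 97.7 and 97.5 (limma, adjusted p = 0.00484). Without untreated replicate 1 neither passed (limma, adjusted p = 0.081 and 0.0678), and without TWEAK replicate 1 the former did not (limma, adjusted p = 0.0536). The site over the SDC4 start did not pass the test, at 90.1 and 92.1 against 89.7 and 86.7 (limma, adjusted p = 0.308), although the RefSeq promoter (GRCh38.p14) holds a kB match 97 bases before the start, in cgcttccactGGGGAATTCCgggcggggtg on the gene strand.

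CD274 (ENSG00000120217.14, chr9:5450503-5470566, plus strand), the gene for PD-L1, had 9 and 10 peaks in the untreated and 17 and 16 in the TWEAK libraries. Its 5 gained sites were 29.4% of its 17 sites, the highest share among the 8 genes, and 3.6% of protein-coding genes had at least 5 gained sites. All 5 were below the 43rd percentile in both TWEAK libraries. The site with the highest lower percentile, chr9:5509552-5510086 at the promoter of the neighbouring PDCD1LG2, the gene for PD-L2, had 38.1 and 37.7 and holds an AP-1 match. The site 4.9 kb downstream at an alternative start of CD274 had 16.4 and 27.3 and the AP-1 match shown above. With a -log10 p of at least 5 as the threshold for a peak, 2 gained sites of CD274 were left.

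The region upstream of CD274, around PLGRKT, held both of its called sites. The site chr9:5440339-5441438, 9.6 kb upstream, had percentiles of 61.8 and 65.0 in the untreated and 86.3 and 85.5 in the TWEAK libraries, and its fold went from 10.6 and 12.5 to 36.1 and 40.6 (limma, score difference 0.73, SE 0.117, adjusted p = 4.28e-05). The site 14.4 kb upstream had 15.1 and 43.8 against 66.2 and 64.1 (limma, adjusted p = 0.00716), and this call was lost without untreated replicate 1 (limma, adjusted p = 0.167). A gained site at 11.5 kb upstream lay between these sites, with 29.2 and 31.2. The CD274 start itself was among the strongest peaks of every list, at 90.7 and 89.5 in the untreated and 93.0 and 94.4 in the TWEAK libraries, and although the groups did not overlap the difference did not pass the threshold (limma, adjusted p = 0.0717).

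CD80 (ENSG00000121594.12, chr3:119524293-119559614, minus strand) had no gained and no lost site, with 13 and 11 peaks in the untreated and 13 and 12 in the TWEAK libraries. Its start was open in every library at 78.1, 81.3, 78.7 and 74.9 (limma, adjusted p = 0.668). The only called site, at the POGLUT1 promoter 71.1 kb downstream, was lower with TWEAK, with 56.4 and 65.0 against 40.6 and 17.9 (limma, adjusted p = 0.0218). Of the fits that left out 1 library, only the one without TWEAK replicate 1 kept the call, and in the others the adjusted p in limma was 0.0733 and 0.265 without untreated replicates 1 and 2 and 0.189 without TWEAK replicate 2. A site at the ADPRH promoter 22.8 kb upstream was absent from untreated replicate 1, at 37.4 in untreated replicate 2 and at 70.0 and 58.6 in the TWEAK libraries.

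CD83 (ENSG00000112149.10, chr6:14117256-14136918, plus strand) had 20 and 22 peaks in the untreated and 26 and 19 in the TWEAK libraries. Its gained and called sites lay upstream in intergenic sequence. The gained site chr6:14079398-14079925, 37.6 kb upstream, had percentiles of 68.8 and 63.2 and a fold of 16 and 16.2, the smallest gap between the TWEAK replicates among the 3 strongest gained sites. The site 48.6 kb upstream had 23.7 and 22.8 against 58.1 and 57.3 (limma, adjusted p = 0.0156), and the site 8.7 kb upstream 2.13 and 22.8 against 48.6 and 51.2 (limma, adjusted p = 0.0244). Neither upstream call was kept in every fit that left out 1 library. The adjusted p of the former in limma was 0.0548 and 0.107 without TWEAK replicates 1 and 2, and that of the latter was 0.0851 and 0.211 in the same fits and 0.216 without untreated replicate 1. An intronic site 2.6 kb downstream had 55.3 and 51.0 in the untreated against 16.4 and 31.2 in the TWEAK libraries, just short of the threshold (limma, adjusted p = 0.0549), and passed it as lower with the log2 fold (limma, adjusted p = 0.0414). The site over an annotated CD83 start 0.5 kb downstream holds 6 kB matches, partly overlapping, among them gctgcccgccGGGGAATCCCccgggctggc on the plus strand. It had 70.9 and 63.0 in the untreated and 71.1 and 51.2 in the TWEAK libraries, and the groups overlapped (limma, adjusted p = 0.653).

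TNFRSF9 (ENSG00000049249.10, chr1:7915871-7943165, minus strand) had 21 and 26 peaks in the untreated and 31 and 29 in the TWEAK libraries, and none of its 18 sites present in all libraries was called by limma on ranks. At an unadjusted p under 0.05 there were 3, among 28940 of all 131751 tested sites, and on the log2 fold scale 2 were called, both lower, as were 8.87% of all tested sites. It had 2 gained sites and 1 lost site, or 5 and 0 when a peak had to reach 5 times the background. The stronger gained site, chr1:7948852-7949363, is intergenic 5.9 kb upstream and had 53.2 and 43.0 with an AP-1 match, whereas the site at the ERRFI1 promoter 72.9 kb upstream had 6.62 and 7.37. The lost site 79.1 kb downstream had 44 and 9.60. At the RefSeq promoter of TNFRSF9, 2.2 kb downstream of the start of the gene record, the site chr1:7940632-7941362 was absent from untreated replicate 1, at 22.8 in untreated replicate 2 and at 54.6 and 45.3 in the TWEAK libraries. This promoter holds a kB match 74 bases before the RefSeq start, in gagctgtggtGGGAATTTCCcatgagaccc, and an AP-1 match 44 bases before it, in cgcccctggcTGAGTCAccgcactcct, both on the gene strand. The site at the start of the gene record was of similar rank in all libraries, at 44, 37.4, 44.9 and 34.6 (limma, adjusted p = 0.966).

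**Figure D3:**
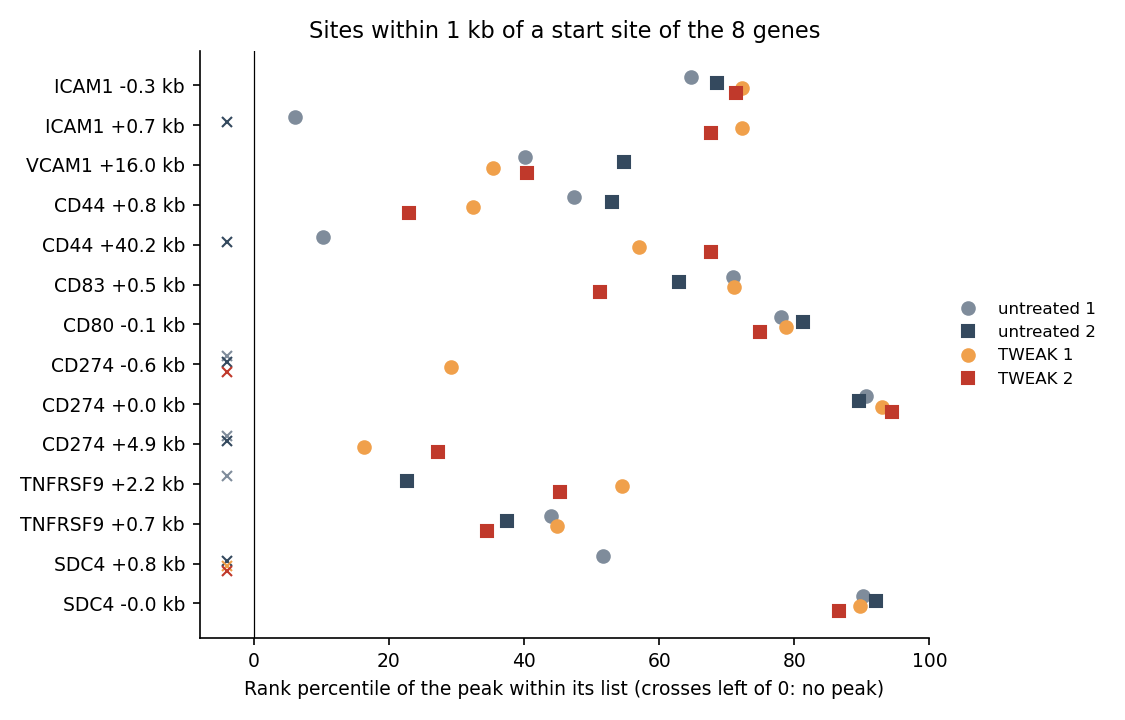
Rank percentile of every site within 1 kb of an annotated start site of the 8 genes, with 1 point per library and a cross left of 0 where the list has no peak. The main starts of ICAM1, CD80, CD274 and SDC4 and the CD83 start at 0.5 kb carry peaks in all 4 libraries. ICAM1 at 0.7 kb, CD44 at 40.2 kb and TNFRSF9 at 2.2 kb are higher in both TWEAK libraries than in any untreated library. The main ICAM1 and CD274 starts show the same order by smaller margins, and CD274 at 4.9 kb has peaks in the TWEAK libraries only.

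Start sites and distal sites were then compared across the genes. Of the 8 sites within 1 kb of a member start that were present in all libraries, none passed the test in limma on either scale, and 2, at CD274 and CD44, had an unadjusted p under 0.05, as did 28940 of the 131751 tested sites. Of the 23 gained sites 1, at CD274, lay within 1 kb of a member start. By annotation 6 gained sites lay at promoters of any gene (26.1%, against 10.7% of all gained sites, 27.9% of the 287 sites and 16.2% of all sites), 10 in introns, 6 in intergenic sequence and 1 in a coding exon. The median distance of gained sites from the nearest start of their member was 41762 bp, against 32254 bp for sites present in all 4 libraries. For 16 of the 23 gained sites the nearest start was that of another gene, among them 3 at SLC1A2, 3 at PDCD1LG2 and 2 at DNMT1, so proximity does not assign them to the member.

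**Figure D4:**
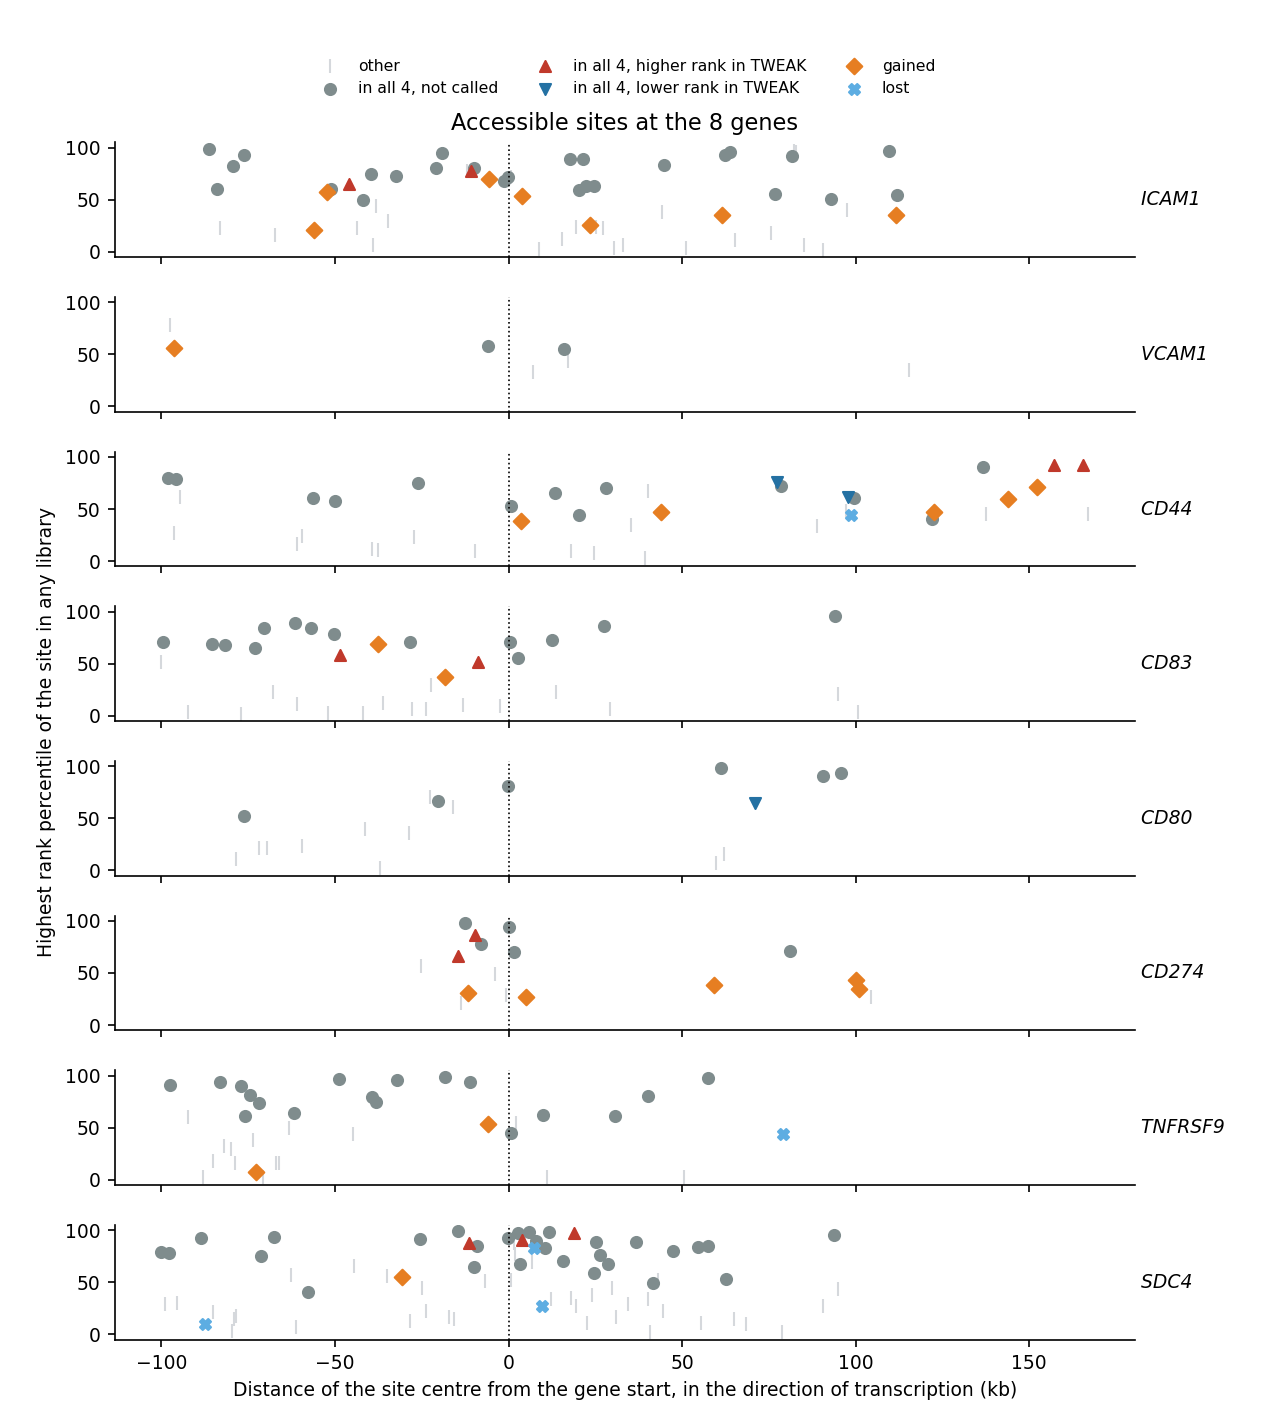
Map of the 287 sites by distance from the gene start in the direction of transcription (kb) and by the highest rank percentile of the site in any library (0 to 100), 1 panel per gene. Gained sites (diamonds) number 7 at ICAM1, 5 at CD44 and 5 at CD274, lost sites (crosses) number 3 at SDC4, and the CD44 symbols beyond 120 kb lie in SLC1A2.

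Sites with a peak in all 4 libraries were tested across the whole genome. Ranks were turned into normal scores, in which 0 is the middle of a list, and 131751 sites were fitted with limma, with Benjamini-Hochberg adjustment over all of them. At the 8 genes, 11 of 127 sites were higher with TWEAK, or 8.66%, whereas 3.87% of all tested sites were higher. 3 sites were lower, or 2.36%, whereas 4.75% of all tested sites were lower. SDC4 held 3 of the higher sites, ICAM1, CD44, CD83 and CD274 held 2 each, and the lower ones lay at CD44 and CD80. Without TWEAK replicate 1 the 8 genes had 9 higher and 10 lower sites of 134, or 6.72% and 7.46%, and the calls over all sites shifted as well, to 2.74% higher and 8.95% lower. The median score difference was -0.05 at the 8 genes and -0.08 over all tested sites. The difference was above 0 at 53 of the 127 sites, or 41.7%, and at 34.6% of all tested sites.

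The ICAM1 sites among the higher ones lay upstream. The site chr19:10259998-10260591, 10.8 kb upstream with an AP-1 match, had percentiles of 54.2 and 37.4 in the untreated and 73.2 and 77.9 in the TWEAK libraries (limma, score difference 0.80, SE 0.166, adjusted p = 0.00137). The site 45.9 kb upstream, in introns of DNMT1 and S1PR2, had 30.3 and 33.5 against 64.6 and 65.1 (limma, score difference 0.85, SE 0.207, adjusted p = 0.00651), and was not called without TWEAK replicate 2 (limma, adjusted p = 0.0588). Sites at ICAM1 10.8 kb upstream, CD44 165.5 kb downstream, CD274 9.6 kb upstream and SDC4 11.5 kb upstream were called in each fit that left out 1 library. The other 7 higher sites and all 3 lower sites were not. With all sites in the fit and missing peaks at the lowest rank, the ICAM1 site 10.8 kb upstream was not called (limma, adjusted p = 0.188), whereas those at CD44 165.5 kb downstream, CD274 9.6 kb upstream and SDC4 11.5 kb upstream were. No site at all was called when the variance was not allowed to depend on the mean (limma, 0 of 131751), although 23158 sites, 24 of them at the 8 genes, then had an unadjusted p under 0.05, so the calls rest on the variance trend.

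**Figure D5:**
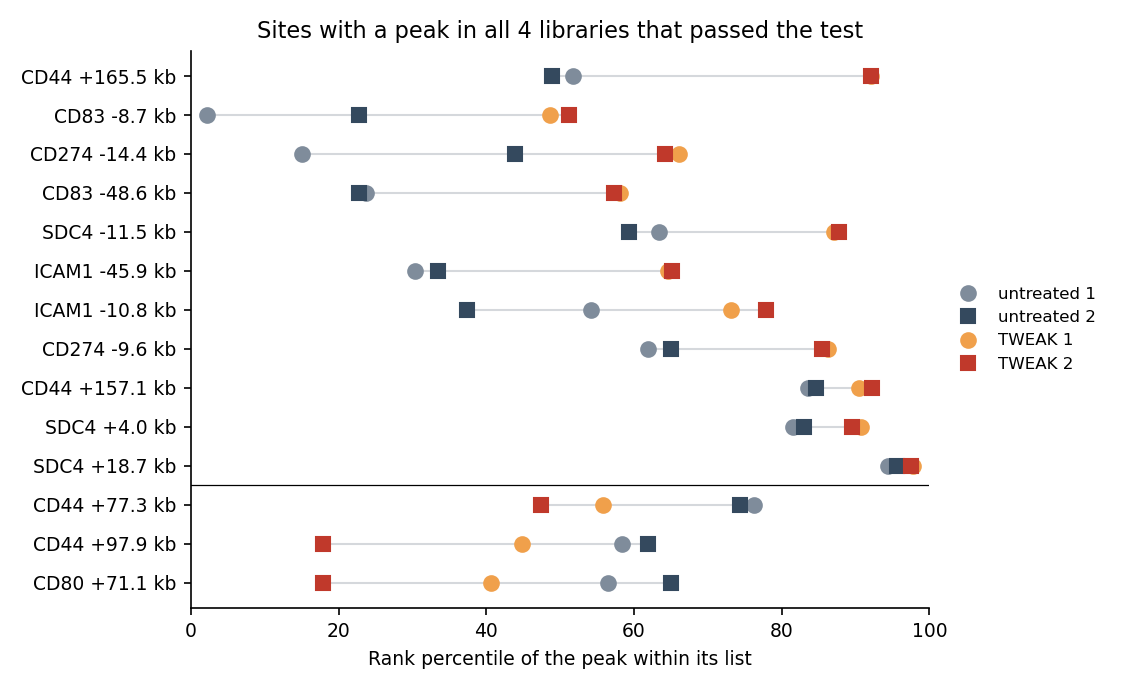
Rank percentile in each library of the 14 sites that were present in all 4 libraries and passed the test (limma, adjusted p under 0.05), with the 11 higher sites above the line and the 3 lower sites below it. CD44 at 165.5 kb moves from 51.7 and 48.9 to 92.1 and 92.1, and CD274 14.4 kb upstream from 15.1 and 43.8 to 66.2 and 64.1.

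The split between higher and lower calls depended on the scaling. Of all calls in the genome 44.9% were higher, 57.2% with scores centred on the median of each library, 58.5% with quantile-normalised log2 values and 39.6% with the log2 fold over background. At the 8 genes the split was 11 higher and 3 lower, 14 and 3, 14 and 2, and 13 and 8 in the same order. All 11 higher and all 3 lower sites of the 8 genes were also called with the log2 fold, and with the quantile-normalised values the CD44 site at 97.9 kb was not (limma, adjusted p = 0.0624).

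Consensus matches were counted in the central 201 bp of each site, on both strands. The AP-1 motif was TGACTCA or TGAGTCA, and the kB motif was the general NF-kB consensus. Of the 23 gained sites, 2 had a kB match (8.70%) and 5 an AP-1 match (21.7%), compared with 20.1% and 16.6% of all gained sites. The gained sites with a kB match were those of ICAM1 at 5.6 kb upstream and CD44 at 143.8 kb downstream, and those with AP-1 lay at CD44, CD274, TNFRSF9 and SDC4. Among sites present in all libraries, 11 of 127 had a kB match (8.66%) and 15 an AP-1 match (11.8%), against 5.96% and 10.6% of all such sites. Of the 11 higher sites 2 had a kB match (18.2%) and 2 an AP-1 match (18.2%), against 26.9% and 26.7% of all higher sites. None of the 5 lost sites had either, against 4.28% with a kB and 4.90% with an AP-1 match among all lost sites. A match describes the letters in the window and not binding. Among 34961 RefSeq promoters of 300 bases, 11.3% held a kB match and 4.92% an AP-1 match. Of the 8 genes, VCAM1, CD83, TNFRSF9 and SDC4 held a kB match there and ICAM1, CD44, CD80 and CD274 held none.

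Other adhesion, costimulatory and syndecan genes, also chosen with earlier results of these data known, gave a comparison. Their 28 genes had 1111 sites that belonged to no member, of which 31 were gained (2.79%) and 53 were lost (4.77%). Among their 489 sites present in all libraries 13 were higher (2.66%) and 24 were lower (4.91%), against 3.87% and 4.75% of all tested sites. At least 1 gained site lay within 100 kb of 22 of the 28 relatives and of 7 of the 8 members, but this was so for 63.3% of protein-coding genes. ICAM3, ICAM4 and ICAM5 are neighbours of ICAM1 and PDCD1LG2 is a neighbour of CD274, so their gained sites are those already described.

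Gained sites exceeded lost ones by at least 3 at TNFSF4 and ALCAM, beside the genes that share sites with a member, and lost sites exceeded gained ones by at least 3 at ICAM2, L1CAM, F11R, CD40, ICOSLG, TNFRSF4, TNFRSF18 and SDC1. TNFRSF4 and TNFRSF18 are neighbours with overlapping windows, so their lost sites are in part the same. TNFSF4, the ligand of the OX40 receptor, had 3 gained sites and no lost site, with 6 and 8 peaks in the untreated and 9 and 11 in the TWEAK libraries. ALCAM, an immunoglobulin-family adhesion molecule, also had 3 gained sites and none lost, and its 10 and 10 peaks compared with 12 and 11. CD276, another B7-family gene, had 5 gained and 3 lost sites. CD40, the costimulatory receptor of the TNF receptor family, had 2 gained and 10 lost sites, with 71 and 80 peaks against 64 and 49. SDC1, the epithelial syndecan, had 2 gained and 8 lost sites and 6 sites that were lower. ICOSLG, the ligand of the costimulatory receptor ICOS, had no gained and 5 lost sites, with 35 and 35 peaks against 31 and 20.

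For each member the protein-coding gene on another chromosome with the most similar values was sought, by the Euclidean distance over the 4 libraries of the log2 of 1 plus the summed rank fraction of the peaks. The nearest gene was SMAD3 for ICAM1 (distance 0.0718), SDC2 for VCAM1 (0.474), PIGO for CD44 (0.0421), PLCD4 for CD83 (0.0512), RPRD1A for CD80 (0.03), SERPINA1 for CD274 (0.0659), GALNT7 for TNFRSF9 (0.0264) and SIK3 for SDC4 (0.0386). The measure follows the amount of accessible sequence as well as its change, over 4 libraries only.

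The 100 kb limit was not a natural boundary. The gained sites closest to it on the inside were the ICAM1 site near TYK2, 99067 bp from an ICAM1 start with percentiles of 35.4 and 31.2, and the VCAM1 site described above, 96013 bp away. On the outside, the nearest lay 105602 bp from a CD44 start in SLC1A2, with 42.8 and 31.2, and 112756 bp from TNFRSF9, with 21.4 and 27.3.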

How the data were processed

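ATAC-seq peak lists of 4 SKBR3 libraries (2 untreated, 2 TWEAK, grouped by sample titles) were analysed. Per the methods and the submitters' processing notes, the authors trimmed reads with Trimmomatic, mapped them to hg38 with Bowtie2, removed mitochondrial reads with Bamtools and duplicates with Picard, and called peaks per library with MACS2. Versions, the transposase shift and the step giving all peaks the same width are not given in the sources used here. The deposited value of a peak has no name and was read as the authors' uncorrected -log10 p, since 100% of the values matched, within a relative error of 5.07e-06 or less, a Poisson tail of a whole-number pileup. The peak lists hold no read totals, so depth in reads is unknown, and DiffBind, the authors' test, needs reads.

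Peaks of chromosomes 1 to 22 and X overlapping by 1 bp or more were merged (Python 3.11.15). limma 3.58.1 (R 4.3.3, with a variance trend) tested normal scores of ranks over 131751 sites, threshold 0.05. On simulated data it missed most of the smaller changes and missed falls more often than rises. The list of members and of relatives and the motifs were chosen with earlier results of these data known. Named were promoter sites of each member, its gained and lost site with the highest lower percentile, and its shared sites with the largest rise and fall. Other sites were named after their values were seen. The limma p-values rest on a variance shared across sites through the trend, and not on the spread between these 4 libraries alone. Alternatives covered thresholds, distance, start sites, merging, scaling, filters and left-out libraries. An item near one site and the sequence of another are not reported here.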

Additional observations from a re-analysis of the deposited data

How the results depend on the processing

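The share of gained sites at the 8 genes stayed above that of all sites under every alternative run, closest as a ratio without TWEAK replicate 1 (13.5% against 9.09%) and without TWEAK replicate 2 (18.8% against 11.6%), and in percentage points with the start of the gene record only (6.64% against 3.6%). The share of lost sites stayed below, closest as a ratio and in points with a -log10 p of at least 5 (2.79% against 3.36%) and a fold of at least 5 (1.90% against 2.33%), and gained sites exceeded lost ones throughout. These alternatives reuse the same 4 lists, and the members were chosen with earlier results of these data known. Within 50 kb there were 14 gained and 3 lost sites, and without close neighbours 2 lost sites. With 1 library left out, fewer lists define a pattern, and gained sites ranged from 33 to 52 and lost sites from 12 to 24. The peak difference kept its direction (16 to 38 with 1 library left out). Higher and lower sites at the 8 genes numbered 3 and 0 with missing peaks at the lowest rank of the list and 0 and 0 without the variance trend, 8 were lower with the log2 fold, and leaving out 1 library gave 6 to 15 and 0 to 10, with 9 higher and 10 lower without TWEAK replicate 1. Over all sites the higher and lower calls numbered 7667 and 11680 with the log2 fold, 854 and 155 with missing peaks at the lowest rank, and 0 and 0 without the trend (against 28940 sites with an unadjusted p under 0.05 with the trend and 23158 without). They were 7982 and 5972 with ranks taken anew among shared sites (chosen after seeing the data), and 3679 to 5301 and 1998 to 12429 with 1 library left out. Why these counts moved was not tested. With 1 library left out, the score difference of 2 sites that were not called changed sign, that of TNFRSF9 75.8 kb upstream (-0.12 to 0.88) and that of ICAM1 84.1 kb upstream (-0.70 to 0.13). Deviations of same-numbered libraries were hardly correlated (0.00865), which cannot show whether these libraries were prepared together. With the replicate block 11 higher and 3 lower sites at the 8 genes and 4573 and 5117 of all were called. Background pileups of 1.85 to 3.59 limit what weak peaks can show.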
